A study of Mus musculus with 16 samples.

Results

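Clock output genes and glucocorticoid-responsive genes were followed in glomerular extracts of mouse kidney during nephrotoxic serum nephritis, as 10 genes of the 30142 measured with a single gene symbol. These were Klf9, Usp2 and Alas1, which were chosen by their 2-week differences in these same arrays, and Per1, Per2, Dbp, Tef, Nr1d1, Fkbp5 and Tsc22d3, which belong to the clock or to the glucocorticoid response. Each was read from 1 probeset, so no choice between probesets was needed. The question was whether the 2-week differences of Usp2, Klf9 and Alas1 were shared by the clock genes. Because the values at 2 weeks chose these 3 genes, their 2-week values are given as a description with no test, and tests are given for the other 7.

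The study held 16 mice, 1 array each, in 8 groups of 2. Of these, 8 were C57Bl/6 wild type and 8 were ERα knockout mice on that background (B6.ERαKO), which lack oestrogen receptor alpha, the product of Esr1. Kidneys came from untreated mice or from mice at 18 hours, 6 days or 2 weeks of serum nephritis. The nephrotoxic sheep serum, injected intraperitoneally at 8 ul per g, gives an antibody-driven nephritis of the glomerular basement membrane. Not given in the sources used here were the Esr1 allele and the hour of day of the harvest. Mice of a group are labelled as replicates, with nothing said of litter or cage.

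The mammalian clock is a feedback loop in which ARNTL (BMAL1) with CLOCK or NPAS2 switches on genes through E-boxes in their promoters. Among these genes, the PER proteins close the loop, NR1D1 (REV-ERBα) represses Arntl, and DBP and TEF, PAR-domain transcription factors, drive output genes through D-boxes, so Dbp and Arntl run in opposite phase over the day. The kidney has a strong clock of this kind, and glucocorticoids set it partly through Per1. Fkbp5 and Tsc22d3 (GILZ) are classical targets of the glucocorticoid receptor. Klf9 is a transcription factor reached by both the receptor and the clock. Usp2 encodes a deubiquitinase with strongly rhythmic transcription, and Alas1 the rate-limiting enzyme of haem synthesis, which is under clock control in liver.

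Promoter stretches are shown because E-boxes are the element through which the clock reaches its targets. In the 250 bases before each annotated start (RefSeq, GRCm38.p6), 9 of the 10 members had a sequence, in 14 windows. The E-box CACGTG, searched on both strands, lay in 4 windows of 3 genes, and 6.02% of all 32851 promoter windows of that length held it. These 4 stretches of 30 bases are written 5′ to 3′ on the gene's strand, with the E-box in capitals.
Per1, chr11:69098771-69098800, plus strand, E-box 166 bases before the start: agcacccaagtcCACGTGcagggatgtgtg
Tef, chr15:81802534-81802563, plus strand, 127 bases before one start: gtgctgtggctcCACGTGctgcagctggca
Tef, chr15:81811264-81811293, plus strand, 138 bases before another start: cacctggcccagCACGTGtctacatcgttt
Fkbp5, chr17:28486301-28486330, minus strand, 169 bases before the start: gcaagggccagaCACGTGggcagcggtgaa

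No window of Klf9, Usp2, Alas1, Dbp, Nr1d1 or Tsc22d3 held any motif searched. The part of these motifs in the 2-week differences was not tested. Searched on both strands were the D-box TTATGTAA, the ROR element and the palindromic glucocorticoid response element. These 3 were found in 0 of the 14 member windows, against 0.82%, 0.49% and 0.39% of all windows. No match says only that these letters are not in these windows. The windows of Klf9 and Alas1 are printed as examples of members with no match.
Klf9, chr19:23140976-23141225, plus strand: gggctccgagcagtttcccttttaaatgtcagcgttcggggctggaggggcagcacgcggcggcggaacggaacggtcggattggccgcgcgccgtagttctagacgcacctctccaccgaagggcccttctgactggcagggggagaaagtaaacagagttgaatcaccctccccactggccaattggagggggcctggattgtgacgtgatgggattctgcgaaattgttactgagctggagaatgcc
Alas1, chr9:106247955-106248204, minus strand: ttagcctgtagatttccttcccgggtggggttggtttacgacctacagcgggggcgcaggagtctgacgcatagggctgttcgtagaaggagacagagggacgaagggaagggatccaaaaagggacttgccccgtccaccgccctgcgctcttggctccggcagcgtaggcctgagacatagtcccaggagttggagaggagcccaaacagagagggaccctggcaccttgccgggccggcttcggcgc

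Several arrays stood apart in ways that touch these results. Array medians lay between 5.57 and 5.9 in the deposited log2 values. Esr1 lay between 6.35 and 7.53 over the 8 wild type arrays and between 7.11 and 7.64 over the 8 knockout arrays, so it was not lower in the knockout (difference averaged over the 4 times 0.55 ± 0.11 SE, limma adjusted p = 0.218). At 18 hours, 8 kidney genes that are higher in males averaged 8.46 (replicate 1) and 16.19 (replicate 2) among wild type arrays, but 15.31 (replicate 1) and 8.18 (replicate 2) among knockout arrays. In the untreated groups these genes averaged 9.55 and 8.30 in wild type and 16.41 and 15.50 in knockout, so both 18-hour replicate 2 arrays lay with the other genotype. Proximal tubule transcripts were read in these glomerular extracts. Slc34a1, a phosphate transporter of that segment, lay between 18.22 and 19.63 over the arrays, and Slc5a2, another tubule gene, between 8.93 and 13.4. The podocyte gene Nphs1 lay between 9.96 and 13.23, and Podxl, another podocyte gene, between 12.42 and 15.33. Levels of different probesets do not give shares of RNA. The knockout 2-week mice differed from each other by more than 2 log2 units in 556 genes, with the injury marker Havcr1 (KIM-1) at 7.17 in replicate 1 and 12.77 in replicate 2. In wild type at 2 weeks Havcr1 was 13.23 and 12.56.

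Usp2, Klf9 and Alas1 stood lower in both wild type 2-week mice than in any other mouse. Usp2 was 8.5 and 9.06 in wild type at 2 weeks, against 10.62 and 10.31 untreated, whereas knockout at 2 weeks had 10.85 and 10.47. Klf9 was 8.14 and 8.33, against 9.42 and 9.44 untreated, and 9.61 and 9.61 in knockout at 2 weeks. Alas1 was 8.80 and 9.40, against 10.38 and 10.25 untreated, and 10.97 and 10.36 in knockout at 2 weeks. For none of these genes did the wild type 2-week arrays overlap any of the other 14. The lowest other array was 10.11 for Usp2, 9.29 for Klf9 and 10.16 for Alas1.

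Among the 7 other members, Tef alone kept both wild type 2-week arrays below the other 14. Tef was 9.59 and 10.22 there, and its next lowest array, wild type 18 hours replicate 1, was 10.67. Over all genes 5.74% had both wild type 2-week arrays below the other 14. Wild type 2-week Dbp, at 6.77 and 9.24, spanned much of the range of the gene over the 16 arrays, which ran from 6.77 to 10.21.

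**Figure D1:**
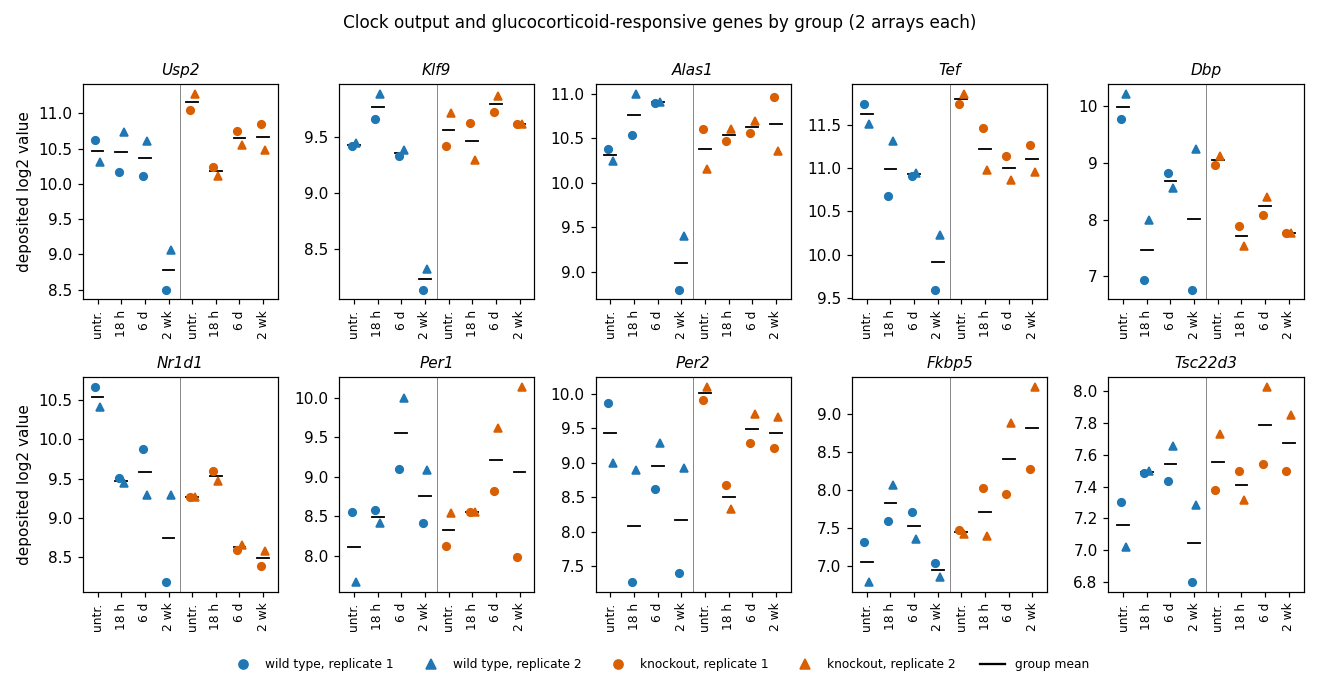
Level of each of the 10 members in every array (vertical axis, deposited log2 units) by group (horizontal axis), with 1 point per mouse and 2 mice in each of the 8 groups. Usp2, Klf9, Alas1 and Tef have both wild type 2-week points below all others, whereas the wild type 2-week points of Dbp lie at 6.77 and 9.24.

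In the wild type, Tef and Nr1d1 were the members that fell at 2 weeks against untreated mice, among the 7 tested. Tef fell by 1.72 ± 0.27 (SE) log2 units (limma adjusted p = 0.0118) and Nr1d1 fell by 1.80 ± 0.30 (limma adjusted p = 0.0134). These were 2 of the 7 members tested, where 8.04% of all genes were called (adjusted p under 0.05 over 30142 genes) and 3.23% were called lower. Usp2, Klf9 and Alas1, which were not tested, differed by -1.68 ± 0.26, -1.2 ± 0.16 and -1.21 ± 0.26. Leaving out either untreated wild type mouse ended both calls, with adjusted p of 0.0892 and 0.0841 for Tef and 0.0964 and 0.0924 for Nr1d1. Without both 18-hour replicate 2 arrays, Tef and Nr1d1 were called and 2.85% of genes were.

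The untreated wild type mice had Nr1d1 at 10.67 and 10.41, and those at 2 weeks had 8.18 and 9.30, so the groups did not overlap. The knockout mice at 2 weeks, at 8.39 and 8.58, lay between the 2 wild type mice. Dbp missed the threshold (-1.99 ± 0.60, adjusted p = 0.0653), with both 2-week arrays below the untreated arrays of 9.78 and 10.21. Without wild type 2-week replicate 2 the Dbp difference was -3.23 (adjusted p = 0.0182), and without replicate 1 it was -0.75, with adjusted p from 0.0182 to 0.244 over the arrays left out. With each array centred on its median, Dbp was called at -2.20 (adjusted p = 0.037). That centring moved the median of all genes from 0.13 to -0.08 and turned the 1450 higher and 974 lower genes into 566 and 2725.

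Per1, Per2, Fkbp5 and Tsc22d3 gave no call in wild type at 2 weeks. Per2 was 7.41 and 8.92 against 9.87 and 8.99 untreated (-1.26 ± 0.56, adjusted p = 0.155). Per1 was 8.41 and 9.09 against 8.56 and 7.67 (0.64 ± 0.59, adjusted p = 0.473). The untreated spread of Per1 alone was 0.89, so its groups overlapped. Fkbp5 was 7.04 and 6.86 against 7.32 and 6.79 (-0.11 ± 0.39, adjusted p = 0.865), and Tsc22d3 was 6.80 and 7.29 against 7.30 and 7.02 (-0.12 ± 0.22, adjusted p = 0.735). The glucocorticoid receptor gene Nr3c1 was 9.0 and 9.38 against 9.21 and 9.41 (-0.12, adjusted p = 0.601).

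**Figure D2:**
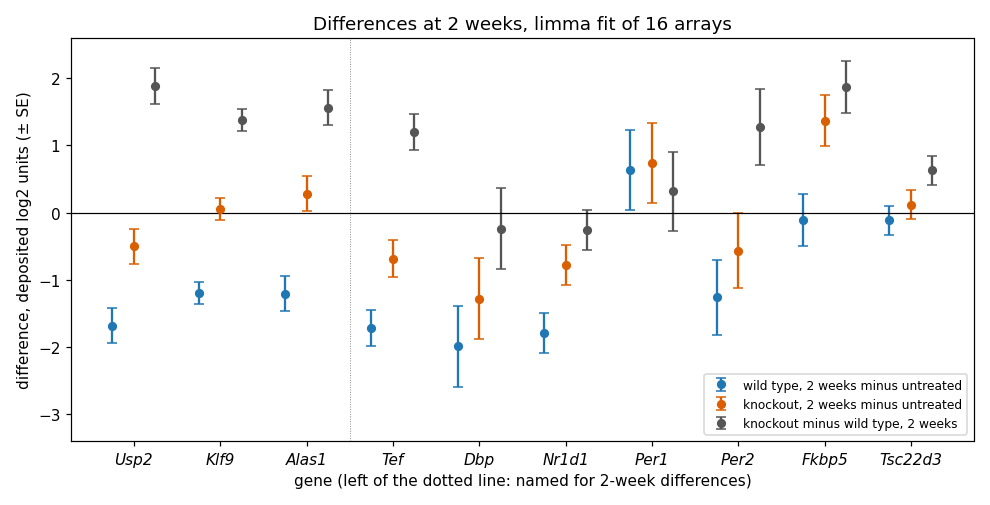
Difference at 2 weeks for each member (vertical axis, deposited log2 units, bars ± SE of the limma fit) for wild type against untreated, knockout against untreated, and knockout against wild type at 2 weeks, n = 2 mice per group. Usp2, Klf9 and Alas1, left of the dotted line, were chosen for these values, and the knockout minus wild type points of Dbp and Nr1d1 lie at -0.24 and -0.26.

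Between genotypes at 2 weeks, the 3 chosen genes were higher in knockout, and the tested members gave no call. Usp2 differed by 1.88 ± 0.26, Klf9 by 1.38 ± 0.16 and Alas1 by 1.56 ± 0.26, as a description. The 8 kidney genes higher in males averaged 9.48 and 8.86 in wild type at 2 weeks and 16.7 and 12.55 in knockout. The 4 kidney genes higher in females averaged 11.16 and 12.01 against 8.17 and 9.75. Genotype and this sex-biased profile cannot be told apart in this comparison. Of the 7 tested members, 0 were called, where limma called 55 genes (0.182%) and 5841 genes had an unadjusted p under 0.05. Tef was 11.26 and 10.95 in knockout against 9.59 and 10.22 in wild type (1.2 ± 0.27, adjusted p = 0.0989), and Per2 9.21 and 9.66 against 7.41 and 8.92 (1.27 ± 0.56, adjusted p = 0.246). For Tef, Per2, Fkbp5 and Tsc22d3, 4 of the 7, both knockout arrays lay above both wild type arrays, as they did for 13.9% of all genes. Without knockout 2-week replicate 2, Tef was called (1.35, adjusted p = 0.0188). The Per2 difference was 2.03 without wild type 2-week replicate 2 and 0.51 without replicate 1, and was not called.

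Dbp and Nr1d1, by contrast, had overlapping arrays. Dbp was 7.76 and 7.77 in knockout against 6.77 and 9.24 in wild type, a difference of -0.24 with a 95% interval from -1.57 to 1.08. Nr1d1 was 8.39 and 8.58 against 8.18 and 9.30, a difference of -0.26 with a 95% interval from -0.91 to 0.40. Leaving out wild type 2-week replicate 1 gave Dbp -1.48 (adjusted p = 0.0295) and Nr1d1 -0.81 (adjusted p = 0.0408), and leaving out replicate 2 gave 1.0 and 0.30, so the direction of both turned on these 2 mice. Usp2 ranged from 1.60 to 2.16, Klf9 from 1.28 to 1.47 and Alas1 from 1.26 to 1.86 over the 16 arrays left out in turn. These ranges are a description only. The genes were chosen by their 2-week values in the same arrays, so narrow ranges are no support for their differences.

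Fkbp5, a co-chaperone of the glucocorticoid receptor, was higher in both knockout mice at 2 weeks, with a difference above that of 99.5% of genes, and was not called. It was 8.28 and 9.36 in knockout against 7.04 and 6.86 in wild type (1.87 ± 0.39, adjusted p = 0.0842), with no overlap. It was called without wild type 2-week replicate 1 (1.96, adjusted p = 0.0295) and without knockout 2-week replicate 2 (1.33, adjusted p = 0.0399), and over all arrays left out its adjusted p ran from 0.0295 to 0.283. Unlike Usp2, Klf9 and Alas1, its wild type 2-week level lay near the untreated 7.32 and 6.79, and its knockout level lay above the knockout untreated 7.48 and 7.42 (1.37 ± 0.39, adjusted p = 0.293). Tsc22d3 was 7.5 and 7.85 against 6.80 and 7.29 (0.63 ± 0.22, adjusted p = 0.181). Per1, at 7.99 and 10.14 in knockout and 8.41 and 9.09 in wild type, differed by 0.31 ± 0.59 (adjusted p = 0.78), less than its knockout mice differed from each other.

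In the knockout, 2 weeks against untreated gave 0 calls among the 7, where limma called 33 genes (0.109%) and 2488 had an unadjusted p under 0.05. Klf9 (0.05 ± 0.16) and Alas1 (0.28 ± 0.26) lay near their untreated levels, and Usp2 was at -0.50 ± 0.26. Dbp, Tef, Nr1d1 and Per2 had both knockout 2-week arrays below both untreated arrays, 4 of 7 members where 14.6% of all genes did. Their differences were -1.28, -0.69, -0.78 and -0.57, with adjusted p of 0.61, 0.549, 0.53 and 0.828.

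The difference between the genotypes' 2-week responses was 1.25 ± 0.23 for Klf9, 1.18 ± 0.37 for Usp2 and 1.49 ± 0.37 for Alas1. Among the tested members it was 1.03 ± 0.38 for Tef and 1.47 ± 0.54 for Fkbp5 (both adjusted p = 0.639), 1.02 ± 0.42 for Nr1d1 (0.657) and 0.71 for Dbp (0.812). Limma called 0 genes of 30142 (0%) for this difference, and 2244 had an unadjusted p under 0.05.

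The 2 wild type 2-week mice differed from each other in several clock genes. The difference, replicate 1 minus replicate 2, was -2.48 for Dbp, -1.51 for Per2, -1.44 for Per3, a PER family member, and -1.11 for Nr1d1. Usp2, Alas1 and Tef differed between the same mice by -0.56, -0.60 and -0.63, and Klf9 by -0.19. Arntl, chosen after its values were seen because it runs opposite to Dbp, differed by 1.87, being 8.62 in replicate 1 and 6.75 in replicate 2. Replicate 1 had the lowest Dbp of the 16 arrays, and replicate 2 had Dbp at rank 14 of 16 from the lowest, next to untreated mice. Usp2, Klf9 and Alas1 were chosen by their values in these same mice, and the part of clock phase in their 2-week differences was not tested.

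Over all 16 arrays the lowest Dbp values fell in arrays with the highest Arntl. Wild type 2-week replicate 1, wild type 18-hour replicate 1 and knockout 18-hour replicate 2 had the lowest Dbp (6.77, 6.93 and 7.54), and these 3 arrays had the highest Arntl (8.62, 9.03 and 8.23). The 4 untreated arrays had Dbp between 8.97 and 10.21 and Arntl between 5.99 and 6.50. Arntl of the 4 arrays at 18 hours lay between 7.65 and 9.03. Whether the mice of different groups were taken at the same hour was not tested, since no value in the files gives it.

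**Figure D3:**
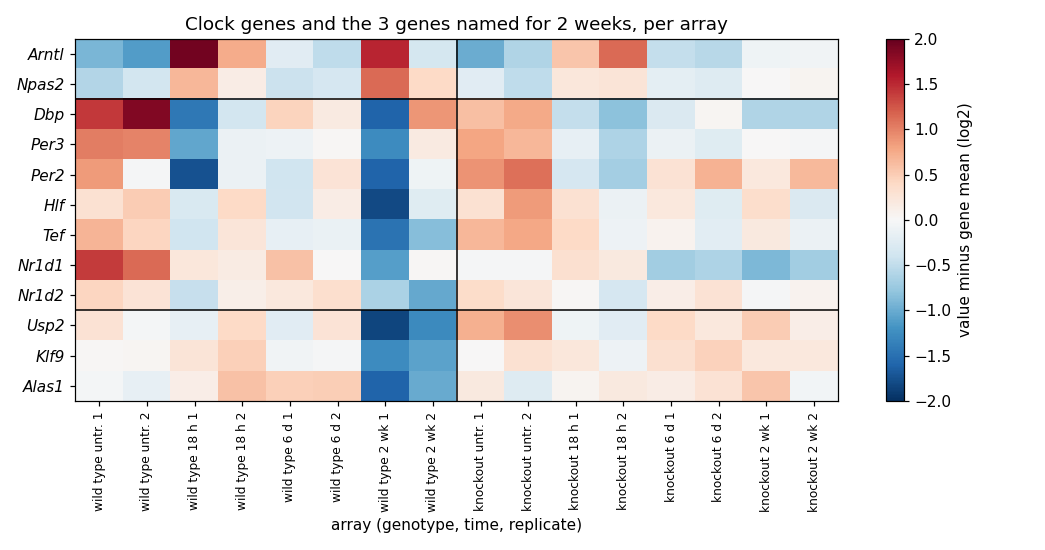
Clock genes and Usp2, Klf9 and Alas1 (rows) in each of the 16 arrays (columns, by group), coloured by its deposited log2 value minus its own mean over the arrays. Arntl and Npas2 are high where Dbp and Per3 are low, in wild type 18-hour and 2-week replicate 1. In wild type 2-week replicate 2, Npas2 is 6.93 and Dbp 9.24, so both lie above their own means there. Usp2, Klf9 and Alas1 are low in both wild type 2-week columns.

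At 18 hours and 6 days, none of the 10 members was called in either genotype. Limma called 0 genes at 18 hours in wild type and in knockout (0% in each, with 1186 and 1216 genes at an unadjusted p under 0.05), 0 at 6 days in wild type (0%, 2106 unadjusted) and 4 at 6 days in knockout (0.0133%). The 3 time points of a genotype share its untreated mice. Dbp and Tef had both arrays below both untreated arrays at every time in both genotypes. Of all genes, 17.5%, 17% and 20% lay so in wild type at 18 hours, 6 days and 2 weeks, and 16.4%, 21.8% and 14.6% in knockout. Wild type Dbp was 6.93 and 8.00 at 18 hours and 8.82 and 8.55 at 6 days, differences of -2.53 ± 0.60 (adjusted p = 0.815) and -1.31 ± 0.60 (0.718). Knockout Dbp was 8.97 and 9.13 untreated, 7.89 and 7.54 at 18 hours (-1.33, adjusted p = 1) and 8.08 and 8.40 at 6 days (-0.81, 0.965). Without wild type 18-hour replicate 2, one of the 2 arrays that lay with the other genotype, the wild type 18-hour Dbp difference was -3.06, and it was not called.

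Per2 was 7.27 and 8.90 at 18 hours in wild type (-1.34 ± 0.56, adjusted p = 1) and 8.67 and 8.33 in knockout (-1.50 ± 0.56, adjusted p = 1), below the untreated 9.91 and 10.10 of the knockout. Per1 went the other way at 6 days, at 9.10 and 10.00 in wild type (1.44 ± 0.59, adjusted p = 0.673) and 8.82 and 9.62 in knockout (0.89 ± 0.59, adjusted p = 0.913). All 4 of these arrays lay above the 4 untreated arrays, which ran from 7.67 to 8.56. The immediate early gene Nr4a1, whose transcript climbs within minutes of stimulation, was 8.91 and 10.38 in wild type and 9.0 and 9.17 in knockout at 6 days, against untreated values of 6.19 to 6.70.

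Before 2 weeks Usp2, Klf9 and Alas1 were tested in full, and 0 of the 3 were called in any comparison. Wild type Alas1 was 10.54 and 10.99 at 18 hours and 10.89 and 10.91 at 6 days (0.59 ± 0.26, adjusted p = 0.713), above the untreated values. Usp2 at 18 hours was 10.17 and 10.74 in wild type, and 10.25 and 10.11 in knockout, below the untreated knockout 11.05 and 11.27 (-0.98 ± 0.26, adjusted p = 1). Wild type Klf9 lay between 9.33 and 9.88 at 18 hours and 6 days.

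Without serum, the genotypes gave 0 calls among the 10 members, where limma called 0 genes (0%) and 1564 had an unadjusted p under 0.05. Nr1d1 was 10.67 and 10.41 in wild type and 9.27 and 9.27 in knockout (-1.28 ± 0.30, adjusted p = 0.902). Dbp was 9.78 and 10.21 against 8.97 and 9.13 (-0.95 ± 0.60, adjusted p = 0.999). Usp2 was the reverse, at 10.62 and 10.31 in wild type and 11.05 and 11.27 in knockout (0.70 ± 0.26, adjusted p = 0.918). In each of these the genotypes did not overlap, nor did they for Per2, Fkbp5 and Tsc22d3, which were higher in both knockout arrays. That made 4 members higher and 2 lower of 10, where 24.2% of all genes had both knockout arrays higher and 21.7% lower. At 6 days Nr1d1 was again lower in both knockout arrays (8.59 and 8.66 against 9.87 and 9.30, -0.96 ± 0.30, limma adjusted p = 0.919), where 2 genes of all were called (0.00664%). Alas1 and Dbp were lower there too, and Klf9, Per2 and Fkbp5 (0.88 ± 0.39, not called) were higher in both knockout arrays. That made 3 of 10 members higher and 3 lower at 6 days, where 15.8% and 20.7% of all genes were. At 18 hours the Nr1d1 arrays overlapped (9.60 and 9.47 against 9.51 and 9.44), where 0 genes were called (0%, with 707 unadjusted). Without both 18-hour replicate 2 arrays, 0 members were called at 18 hours (0.0398% of genes) and at 6 days (0.236% of genes).

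Averaged over the 4 times, limma called 0 genes between genotypes (0%, with 3514 unadjusted), and so 0 of the 7 members. Nr1d1 was lower in knockout by -0.61 ± 0.15 (adjusted p = 0.25) and Fkbp5 higher by 0.75 ± 0.19 (adjusted p = 0.25), and Tef was at 0.42 ± 0.14 (adjusted p = 0.3). Nr1d1 was called without wild type 2-week replicate 1 (-0.75, adjusted p = 0.0397) and without knockout 2-week replicate 2 (-0.63, adjusted p = 0.0423). Without both 18-hour replicate 2 arrays and knockout 2-week replicate 1, Fkbp5 was called at 1.03 (adjusted p = 0.0177), where 2.61% of genes were.

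In order of their group means, most neighbouring groups lay closer than the spread between mice. For Per1 and Per2 all 7 neighbouring pairs did (pooled replicate SD 0.687 and 0.646), for Dbp 6 of 7 (0.698), for Nr1d1 5 of 7 (0.327) and for Tef 5 of 7 (0.284). For Klf9 (SD 0.138) and Usp2 (0.277) 5 of 7 did, and for Alas1 (0.273), Fkbp5 (0.440) and Tsc22d3 (0.235) 6 of 7. Wild type at 2 weeks was the lowest group for Klf9, Usp2, Alas1, Tef, Fkbp5 and Tsc22d3, while Dbp and Per2 were lowest in wild type at 18 hours, Nr1d1 in knockout at 2 weeks and Per1 in untreated wild type.

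Of 20 further core clock and output genes, 17 were measured, and in wild type at 2 weeks 2 rose and 3 fell, with a median difference of -0.21 against 0.13 over all genes. Of all genes, 4.81% were called higher and 3.23% lower. Npas2, an alternative partner of ARNTL, rose from 5.96 and 6.17 to 7.67 and 6.93 (1.24 ± 0.22, adjusted p = 0.0162). Nr1d2 (REV-ERBβ) fell from 12.02 and 11.86 to 10.95 and 10.57 (-1.18 ± 0.22, adjusted p = 0.0183), and Per3 from 10.00 and 9.96 to 7.71 and 9.15 (-1.55 ± 0.39, adjusted p = 0.0394). Bhlhe40 (DEC1), a repressor of the loop, also fell (-0.96 ± 0.25, adjusted p = 0.0439). The fifth was Timeless (0.56 ± 0.15, adjusted p = 0.0453), which in mammals serves mainly at the replication fork. Arntl was at 1.59 ± 0.51 (adjusted p = 0.0736). Between genotypes at 2 weeks none of the 17 was called (median 0.08), and the smallest p belonged to Nr1d2 (0.85 ± 0.22, adjusted p = 0.121) and Nampt, the rate-limiting enzyme of NAD salvage (1.16 ± 0.31, adjusted p = 0.128).

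Of 20 further genes of the glucocorticoid axis, all measured, none rose and 1 fell in wild type at 2 weeks, and that gene was Per3, which is also in the clock list (median 0.11). Of all genes 3.23% were called lower there. Between genotypes at 2 weeks none was called (median 0.45 against -0.06 over all genes). Lpin1, a phosphatidate phosphatase induced by glucocorticoids, was 10.89 and 9.90 in knockout against 8.27 and 8.73 in wild type (1.90 ± 0.41, adjusted p = 0.0891). Errfi1, an inhibitor of EGF receptor signalling, was 12.48 and 12.25 against 11.46 and 10.84 (1.22 ± 0.30, adjusted p = 0.112). Neither pair overlapped.

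Of 8 haem synthesis genes beyond Alas1, 7 were measured and none was called in wild type at 2 weeks or between genotypes at 2 weeks. All 7 had lower means at 2 weeks than untreated in both genotypes, with medians of -0.67 in wild type and -0.35 in knockout. In wild type, Urod was at -0.55 ± 0.16 (limma adjusted p = 0.0635) and Alad at -0.67 ± 0.23 (adjusted p = 0.0815). Between genotypes, Cpox was at 1.42 ± 0.53 (adjusted p = 0.198) and Alas2, the erythroid counterpart of Alas1, at 0.81 ± 0.35 (adjusted p = 0.244).

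Of 10 immediate early genes, 9 were measured and 5 rose in wild type at 2 weeks (median 0.90), where 4.81% of all genes were called higher. Fos rose from 4.70 and 4.57 to 5.72 and 5.93 (1.19 ± 0.20, adjusted p = 0.0142). Egr2 (0.70 ± 0.11, adjusted p = 0.0114), Fosb (0.76 ± 0.17, adjusted p = 0.0269) and Atf3 (0.90 ± 0.22, adjusted p = 0.0337) rose too, as did the fifth, Nr4a1 (1.86 ± 0.51, adjusted p = 0.0496). Per1, which is itself induced within minutes by many stimuli, was not called. Between genotypes at 2 weeks none was called, with Fos at -1.0 ± 0.20 (adjusted p = 0.0789) and Egr2 at -0.53 ± 0.11 (adjusted p = 0.0808). In knockout at 2 weeks no gene of these 4 lists was called. The smallest p belonged to Nfil3 (0.49) and Bhlhe40 (-0.55) in the clock list, Ddit4 (0.49) and Cdkn1a (1.68) in the glucocorticoid list, Urod (-0.38) and Alas2 (-0.79) in haem synthesis, and Nr4a1 (0.88) and Jun (0.77) among the immediate early genes.

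With the members themselves left out of the candidates, the 3 genes most like each of Usp2, Klf9 and Alas1 were in none of the clock lists. Tef, Per1, Per2, Dbp and Nr1d1 are members and could not appear, so their likeness to these genes was not tested here. By Pearson's r over 16 arrays among 11089 genes, Usp2 lay closest to Ppp1r16b, a protein phosphatase 1 subunit (r = 0.954), Pex11a, a peroxisome division factor (0.939), and Slc16a9, a carrier of the monocarboxylate family (0.929). Without the wild type 2-week arrays these were 0.855, 0.858 and 0.738 over 14 arrays. Klf9 lay closest to Terf2ip, a telomere protein (0.945), Sypl2 (0.923) and Pex11a (0.922), which became 0.633, 0.467 and 0.494. Alas1 lay closest to Tmem189 (0.917), Kap, an androgen-regulated protein of the proximal tubule (0.897), and Prelid3b (0.894), which became 0.593, 0.384 and 0.684. Kap was 15.68 and 16.90 in wild type at 2 weeks and at least 19.06 in the untreated arrays. Dbp lay closest to Per3 (0.916, and 0.911 without those arrays), then Cxcl12 (0.811 and 0.803) and Slc26a6 (0.806 and 0.786). These correlations are descriptions over arrays that share the groups.

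Proximal tubule markers were also lower in wild type at 2 weeks. Fewer tubule cells and less RNA per cell cannot be told apart in such extracts. The mean of 11 measured tubule markers was 12.61 and 14.05 in the wild type 2-week mice, 15.34 and 13.70 in knockout at 2 weeks, and between 14.85 and 16.07 in the other 12 arrays. Of the 11, 6 were called lower in wild type at 2 weeks and all 11 had a negative difference (median -2.38), and between genotypes at 2 weeks 0 were called and all 11 differences were positive (median 0.81). The endocytic receptor gene Lrp2, a defining marker of the segment, was 15.88 and 16.78 in wild type at 2 weeks. The 6 tubule injury markers averaged 10.05 and 9.38 in wild type at 2 weeks and 6.63 and 9.46 in knockout. At 6 days they averaged 7.19 and 8.26 in wild type and 8.08 and 9.57 in knockout. In the arrays taken at 18 hours they lay between 6.50 and 6.79. Most glomerular markers had lower means in knockout than in wild type at 2 weeks. Podocyte markers averaged 10.56 and 10.94 in wild type and 9.15 and 10.91 in knockout, glomerular endothelium markers 10.69 and 11.63 against 9.06 and 10.95, and mesangium markers 9.30 and 9.58 against 7.56 and 8.96. Knockout replicate 1 was the lowest of the 4 mice in each list. Their median genotype differences were -0.75 (6 of 6 negative), -1.31 (6 of 7) and -1.37 (6 of 6), with 0 genes called. These lists had negative medians at the other times too, so the direction was not particular to 2 weeks. In the same order, the untreated medians were -0.80, -0.40 and -0.39. They were -0.20, -0.36 and -0.20 at 18 hours, and -0.72, -0.49 and -0.42 at 6 days. The 8 macrophage markers averaged 7.22 and 7.39 in wild type at 2 weeks against 6.40 and 6.26 untreated, and 6.22 and 6.57 in knockout at 2 weeks. Of these 8, 6 were called higher in wild type at 2 weeks than untreated, where 4.81% of all genes were. Between genotypes at 2 weeks 2 of the 8, Tyrobp and Lyz2, were called lower in knockout, where 0.146% of all genes were.

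The replicate 2 mice of both genotypes at 2 weeks, set side by side after their values were seen, had tubule means less than 1 log2 unit apart. Knockout 2-week replicate 2, with a tubule mean of 13.70 and a tubule injury mean of 9.46, had Usp2 at 10.47, Klf9 at 9.61, Alas1 at 10.36 and Tef at 10.95. Wild type 2-week replicate 2, with a tubule mean of 14.05 and an injury mean of 9.38, had Usp2 at 9.06, Klf9 at 8.33, Alas1 at 9.40 and Tef at 10.22. Of the 11 tubule markers, 7 were higher in this wild type mouse and 4 in this knockout mouse. This is 1 mouse of each genotype, and Usp2, Klf9 and Alas1 were chosen by their 2-week values. The part of tubule RNA and of glomerular RNA in the 2-week differences was not tested.

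**Figure D4:**
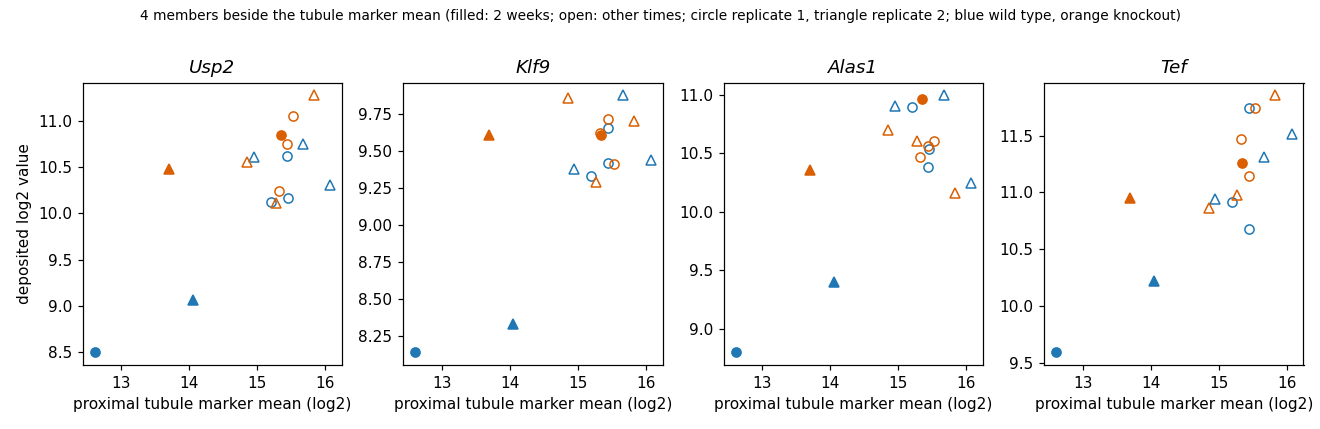
Level of Usp2, Klf9, Alas1 and Tef (vertical axes, deposited log2 units) against the mean of 11 proximal tubule markers (horizontal axis, deposited log2 units), 1 point per array, 16 arrays in 8 groups. Knockout 2-week replicate 2, at a tubule mean of 13.70, has Usp2 at 10.47, whereas wild type 2-week replicate 2, at 14.05, has it at 9.06.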

How the data were processed

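RNA of 16 glomerular extracts (10 ng each) was amplified with an Affymetrix Pico kit and hybridised to 1 array per mouse, per the labels' protocols. The deposited log2 values of 72688 probesets were made by the authors with Affymetrix Expression Console and Transcriptome Analysis Console, per the submitters' processing notes. Not given in the sources used here were versions, summarisation and build, and values reach 19.93, so differences are in deposited log2 units. Probesets with exactly 1 symbol (30604) gave 30142 genes, by the highest mean over the arrays for the 355 genes with several. Those with several symbols (2146) or none (39938) were left out, and groups followed the labels.

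The model, in limma 3.58.1 under R 4.3.3, had 8 group means (8 residual degrees of freedom, intensity trend). It was also run on simulated data, whose outcome is not given here. The p-values were two-sided and adjusted by Benjamini-Hochberg over all genes. With 2 mice per group, they rest on the spread between mice of a group, pooled over the 8 groups and moderated across genes. Number of arrays limits the precision. The members and lists were chosen with earlier results of these data known. The rule named the 10 members and up to 4 called genes per list and comparison (or the 2 of smallest p). It also named the 3 genes outside the members most similar to each of Usp2, Klf9, Alas1 and Dbp. Promoter sequences came from RefSeq.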

Additional observations from a re-analysis of the deposited data

Results flagged for a closer look

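Nr1d1 at 18 hours had both wild type arrays (9.51 and 9.44) below the untreated wild type arrays and both knockout arrays (9.60 and 9.47) above the untreated knockout arrays (9.27 and 9.27). The difference between the responses, knockout minus wild type, was 1.34 (limma adjusted p = 1), and it includes both replicate 2 arrays whose sex-biased genes lay with the other genotype.

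Klf9 at 6 days had both wild type arrays (9.33 and 9.38) below the untreated wild type arrays (9.42 and 9.44) and both knockout arrays (9.72 and 9.86) above the untreated knockout arrays (9.41 and 9.71). The difference between the responses was 0.31 (limma adjusted p = 1).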

How the results depend on the processing

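Between genotypes at 2 weeks, Dbp and Nr1d1 turned direction with the wild type 2-week mouse left out: without replicate 1 they were called at -1.48 and -0.81, and without replicate 2 they were at 1.0 and 0.30, not called. Median centring, quantile normalization, leaving out dim genes and the other settings planned gave the same members called, except that median centring added Dbp in wild type at 2 weeks (3 members) and fitting only the groups compared left 1 member called in wild type at 2 weeks against untreated (Tef) in place of 2. Leaving out 1 array in turn gave 0 to 3 members called in that comparison and in knockout against wild type at 2 weeks, 0 to 1 in knockout at 2 weeks against untreated and over the mean of 4 times, and 0 in the others. Without wild type untreated replicate 1 or 2, 0 were called. With 13 arrays (chosen after seeing the data, without both 18-hour replicate 2 arrays and knockout 2-week replicate 1), 1 member, Fkbp5, was called in knockout at 2 weeks (1.91, adjusted p = 0.0291) and 1 over the mean of 4 times. The addition of 16 before the log2 was not run, since the table is already in log2 units. Replicate numbers were not taken to pair the mice. Correlations of deviations ran from -0.68 to 0.59 over 28 pairs of groups, with 11 above 0.1. This range does not decide whether the numbers pair mice, and the labels do not say. With the replicate block 2 members were called in wild type at 2 weeks and 0 elsewhere. The count of all genes called moved more than the members did. In wild type at 2 weeks it was 2424, against 277 with array weights, 619 with only the groups compared, 859 with 14 or 12 arrays, 1214 after quantile normalization and 3884 with 13 arrays, and between genotypes at 2 weeks it was 55, against 0 with array weights or only the groups compared and 60 with probesets averaged. In knockout at 2 weeks it was 33, against 0 with only the groups compared and 1312 with 13 arrays. Leaving out 1 array gave 0 to 7438, 0 to 5331 and 2 to 1598 genes in these 3 comparisons.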
